A study of Homo sapiens with 12 samples.

Results

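Death receptors carry signals for cell death from outside the cell, and 10 genes of that pathway are described here in glioma cells treated with temozolomide (TMZ). The genes were chosen by name: the death receptors FAS, TNFRSF10A, TNFRSF10B and TNFRSF1A, the decoy receptors TNFRSF10C and TNFRSF10D, the adaptors FADD and TRADD, the initiator caspase CASP8 and its regulator CFLAR. They are 10 of the 19775 genes measured, and 40 of the 54675 probe sets on the array carried the symbol of exactly 1 of them. FAS had 5 such probe sets, TNFRSF10A 3, TNFRSF10B 4, TNFRSF1A 1, TNFRSF10C 4, TNFRSF10D 2, FADD 1, TRADD 3, CASP8 3 and CFLAR 14. A further 2 probe sets named TNFRSF10C together with a second gene and were left out.

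All samples were U-87 MG, an established human glioma cell line, stably transfected with a short hairpin RNA. The 4 groups were shp105 cells (hairpin against p105) with 100 uM TMZ, shp105 cells with the vehicle DMSO, shcontrol cells (control hairpin) with 100 uM TMZ and shcontrol cells with DMSO. Treatment lasted 16 h in every group, and each group had 3 arrays, called biological replicates by the labels. p105, encoded by NFKB1, is cut to give p50, a subunit of NF-kB, and TMZ is a DNA-methylating drug given against glioma. The layout asks how the drug response depends on NF-kB. The labels name neither separate transfections nor whether a line was a clone or a pool. The hairpin and the line therefore cannot be told apart, and the p-values reflect the spread among these arrays alone. In bulk samples such as these, fewer cells of a type and less RNA per cell cannot be told apart.

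When FAS ligand or TRAIL binds its receptor, the receptor's death domain recruits FADD, and FADD recruits CASP8, which then activates itself by cleavage. CFLAR, a catalytically inactive relative of CASP8 also called c-FLIP, limits this step, and decoy receptors bind TRAIL without passing on a full death signal. TNFRSF1A works through TRADD and mostly drives NF-kB, with death as the alternative outcome. FAS and TNFRSF10B are known p53 target genes, and CFLAR and FAS are known NF-kB target genes.

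FAS lies on chromosome 10 (88964050 to 89017059, GRCh38.p14). CFLAR (201116164 to 201176687) and CASP8 (201233463 to 201287711) both lie on chromosome 2. TNFRSF1A lies on chromosome 12, FADD on 11 and TRADD on 16. Promoter windows from RefSeq (GRCh38.p14), from 250 bases before an annotated transcript start to 50 bases after it, were searched on both strands for 5 of the 10 genes, in 12 windows. These genes were FAS, TNFRSF1A, FADD, CASP8 and CFLAR, and the TNFRSF10 genes and TRADD were not searched. The 3 windows shown belong to FAS, the gene with the largest TMZ response of the 10, and to CFLAR, a known NF-kB target, and were picked after the matches were seen. Capitals mark matches to the NF-kB consensus, a p53 half-site consensus, the AP-1 pattern TGANTCA (N is any base) and the GC box GGGCGG. The first FAS window shown, chr10:88990548-88990847 on the + strand, holds TGAATCA, a match to the loose AP-1 pattern, at base 9. It also holds a GC box at base 191. The second FAS window shown, chr10:88991181-88991480 on the + strand, holds an NF-kB match at base 94 and a p53 half-site at base 129. It also holds GC boxes at bases 188 (- strand) and 199. The FAS window not shown, chr10:88990664-88990963 on the + strand, holds 1 GC box and no other match. The CFLAR window, chr2:201118466-201118765 on the + strand, holds a GC box at base 150 that overlaps an NF-kB match at base 154.
FAS, first window: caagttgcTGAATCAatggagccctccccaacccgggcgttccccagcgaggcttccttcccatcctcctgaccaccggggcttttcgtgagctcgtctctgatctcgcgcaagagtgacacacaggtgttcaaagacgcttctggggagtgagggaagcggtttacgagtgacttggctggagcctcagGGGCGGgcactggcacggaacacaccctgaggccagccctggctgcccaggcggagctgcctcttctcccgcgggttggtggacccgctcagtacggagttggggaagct
FAS, second window: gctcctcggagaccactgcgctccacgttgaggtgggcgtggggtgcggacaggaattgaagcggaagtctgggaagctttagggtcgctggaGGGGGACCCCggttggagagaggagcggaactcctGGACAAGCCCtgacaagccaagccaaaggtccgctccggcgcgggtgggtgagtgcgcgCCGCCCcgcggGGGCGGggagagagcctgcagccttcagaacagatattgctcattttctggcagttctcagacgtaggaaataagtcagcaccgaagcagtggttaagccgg
CFLAR window: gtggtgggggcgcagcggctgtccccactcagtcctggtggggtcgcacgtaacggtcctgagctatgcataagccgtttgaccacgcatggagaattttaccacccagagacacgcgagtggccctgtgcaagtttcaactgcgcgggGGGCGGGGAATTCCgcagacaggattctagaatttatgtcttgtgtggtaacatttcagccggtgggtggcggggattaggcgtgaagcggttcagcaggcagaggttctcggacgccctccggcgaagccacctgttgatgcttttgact
Of all 35116 promoter windows of this length, 5.91% held an NF-kB match, 6.63% a p53 half-site match, 7.71% an AP-1 match and 45.0% a GC box. Among the searched windows, only the second FAS window and the CFLAR window shown held an NF-kB match. A p53 half-site was found in that FAS window and in 1 window of CASP8. The single TNFRSF1A window held none of these motifs. A match describes letters in a window and shows no binding.

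Expression values are log2 levels per probe set, and the probe set with the highest mean over all arrays stands for a gene. Array medians lay between 5.04 and 5.09, and pairs of arrays correlated at 0.996 to 0.998 within groups and at 0.990 to 0.997 between groups. NFKB1 averaged 7.16 (SD 0.05) in shp105 cells and 7.41 (SD 0.11) in shcontrol cells with TMZ, which differ by -0.25 (SE 0.07, adjusted p = 0.0204). It missed the 0.05 threshold without shp105_TMZ replicate 1 (adjusted p = 0.0600) or 3 (0.0585), or without shcontrol_TMZ replicate 1 (0.0903) or 2 (0.0684), and with the spike-in level as covariate (-0.18, adjusted p = 0.565). With DMSO the means were 7.20 (SD 0.06) in shp105 cells and 7.32 (SD 0.09) in shcontrol cells, a difference of -0.12 (SE 0.07, adjusted p = 0.260). Hybridization spike-ins averaged 11.32 in shp105 cells with TMZ and 11.13 with DMSO, and 10.95 in shcontrol cells with TMZ and 10.63 with DMSO. They thus moved with both line and treatment, and values from a fit with their level as a covariate are given below. In that fit the standard errors of the TMZ responses and line differences of the 10 genes were larger. A call lost there can therefore come without a smaller difference. A sign of RNA quality, the GAPDH 3' minus 5' log2 difference, was 0.33 to 0.44 on all shp105 arrays and 0.22 to 0.32 on all shcontrol arrays. The same measure of ACTB was 3.01 to 3.15 in shp105 cells with TMZ and 2.94 to 3.14 with DMSO, and 2.78 to 2.94 in shcontrol cells with TMZ and 2.95 to 3.07 with DMSO. The part of RNA quality in the line and TMZ differences was not tested. The mesenchymal and glioma markers VIM (14.69 to 14.84) and CD44 (12.58 to 13.01) were bright on all arrays, while the astrocyte markers S100B (3.25 to 3.79) and AQP4 (2.79 to 3.30) lay within the 2.51 to 4.06 covered by 27 control probe sets for absent sequences. The astrocyte marker GFAP (4.94 to 5.36) and the neural stem cell marker SOX2 (4.90 to 5.32) lay above it. Of the 8 neural and glial markers, 1 was called higher and 1 lower in shp105 cells under each treatment. OLIG2, a factor of the oligodendrocyte lineage, averaged 5.38 (SD 0.24) in shp105 cells and 4.02 (SD 0.25) in shcontrol cells with TMZ, with differences of 1.37 with TMZ and 1.22 with DMSO. CD44 differed by -0.32 with TMZ and -0.25 with DMSO. The leukocyte markers PTPRC (2.66 to 3.58), CD14 (3.32 to 3.91) and NKG7 (3.35 to 3.92) lay within the range of the absent-sequence controls. The leukocyte markers CSF1R (6.46 to 7.09), CD3E (5.51 to 6.03) and ITGAM (5.12 to 5.63) lay above it. Between the lines in DMSO, 1 of 6 leukocyte, 1 of 4 endothelial and 2 of 4 epithelial markers differed, against 19.9% of all genes called there. The summed linear level of the 6 leukocyte markers was 222 to 225 in shp105 cells and 245 to 256 in shcontrol cells with DMSO. CSF1R had the largest log2 difference of the 6 there, -0.34, and their median was -0.04. The part of these markers in the line differences was not tested.

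FAS, the receptor for FAS ligand, was the only one of the 10 genes whose level passed the test after TMZ, and it was higher in both lines. In shp105 cells its log2 level was 9.41, 9.38 and 9.29 with TMZ, against 8.75, 8.65 and 8.82 with DMSO. In shcontrol cells it was 9.79, 9.79 and 9.80 with TMZ, against 9.27, 9.20 and 9.18 with DMSO. In each line all TMZ arrays lay above all DMSO arrays. The log2 difference, TMZ minus DMSO, was 0.62 (SE 0.06, adjusted p = 0.000901) in shp105 cells, a fold of 1.53, and 0.58 (SE 0.06, adjusted p = 0.00183) in shcontrol cells, a fold of 1.49. A gene is called here when limma's p, adjusted over all 19775 genes, is under 0.05. After TMZ, 1 of the 10 genes was called in shp105 cells, against 0.865% of all genes in either direction and 0.647% higher. In shcontrol cells 1 of 10 was called, against 0.369% in either direction and 0.253% higher. At an unadjusted p under 0.05 the counts were 3 of 10 in shp105 cells, against 16.3% of all genes, and 2 of 10 in shcontrol cells, against 11.0%. With the spike-in covariate the FAS response was 0.53 (adjusted p = 0.0376) in shp105 cells and 0.43 (adjusted p = 0.530) in shcontrol cells, where the call was lost. In a fit of just the 2 groups concerned, the response of shp105 cells kept its size (0.62) and lost its call (adjusted p = 0.0714).

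FAS was also lower in shp105 cells than in shcontrol cells under each treatment. Relative to shcontrol cells, the log2 difference was -0.43 (SE 0.06, adjusted p = 0.000219) with TMZ, a fold of 0.741, and -0.47 (SE 0.06, adjusted p = 0.000112) with DMSO, a fold of 0.721. All 3 shp105 arrays lay below all 3 shcontrol arrays in each treatment. With the spike-in covariate the line differences were -0.60 (adjusted p = 0.00542) with TMZ and -0.70 (adjusted p = 0.0132) with DMSO, both called. The difference of the TMZ responses, shp105 minus shcontrol, was 0.04 (95% interval -0.14 to 0.22, adjusted p = 0.961). In order of level the groups ran from shp105 with DMSO through shcontrol with DMSO and shp105 with TMZ to shcontrol with TMZ. The middle neighbours lay close together, at 9.29 to 9.41 in shp105 cells with TMZ and 9.18 to 9.27 in shcontrol cells with DMSO.

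The other FAS probe sets repeated this pattern. TMZ minus DMSO was positive on 5 of 5 probe sets in each line, from 0.44 to 0.62 in shp105 cells and from 0.44 to 0.68 in shcontrol cells. With each probe set tested on its own, 4 of 5 were called in each line, against 0.185% of all 54675 probe sets in shp105 cells and 0.113% in shcontrol cells. The line difference was negative on 5 of 5 probe sets, from -0.74 to -0.32 with TMZ and from -0.71 to -0.31 with DMSO. Again 4 of 5 were called with each treatment, against 12.8% of all probe sets with TMZ and 12.1% with DMSO. The uncalled probe set was the dimmest of the 5 in all 4 comparisons. The order of the middle groups was not kept: on the fourth by level, shp105 cells with TMZ read 6.96, 7.10 and 7.01, against 7.24, 7.19 and 7.19 in shcontrol cells with DMSO.

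**Figure D1:**
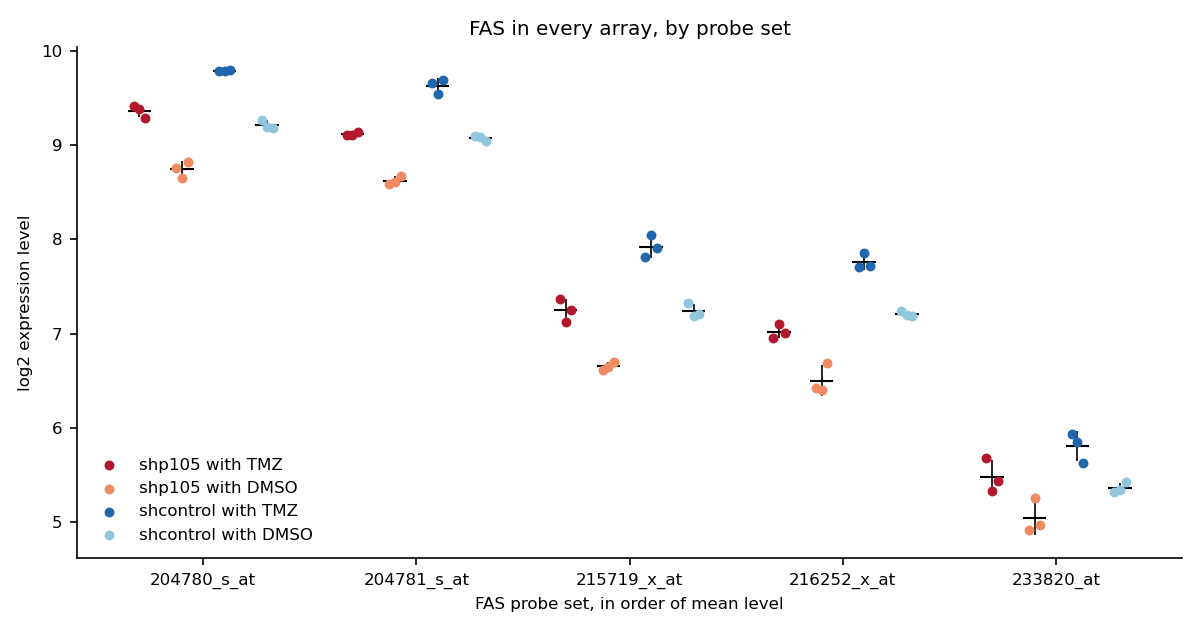
Log2 expression level (vertical axis) of the 5 FAS probe sets (horizontal axis, in order of mean level) on all 12 arrays. Dots are arrays, horizontal bars are group means and vertical bars are 1 SD (n = 3). Within each line the TMZ arrays sit above the DMSO arrays on all 5 probe sets.

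CDKN1A and MDM2, long-known p53 target genes, give a scale for the FAS response. CDKN1A, which encodes the cell-cycle inhibitor p21, differed by 0.92 (SE 0.06, adjusted p = 2.8e-05) in shp105 cells and 0.88 (SE 0.06, adjusted p = 4.5e-05) in shcontrol cells with TMZ. Between the lines CDKN1A differed by -0.36 with TMZ (adjusted p = 0.000687) and -0.40 with DMSO (adjusted p = 0.000333). With the spike-in covariate CDKN1A was no longer called for TMZ in shcontrol cells (0.86, adjusted p = 0.0586) or between the lines, where its differences stayed about as large (-0.39 with TMZ, adjusted p = 0.0815, and -0.44 with DMSO, adjusted p = 0.168). MDM2, the ligase that degrades p53, differed by 0.47 in shp105 cells and 0.61 in shcontrol cells with TMZ. On its brightest probe set the MDM2 line difference ran the other way from those of FAS and CDKN1A. It was 0.20 with TMZ (adjusted p = 0.0837, uncalled) and 0.33 with DMSO (adjusted p = 0.00713). Over 17 alternatives the value with TMZ ran from -0.06 to 0.35, with its sign changed in 1 and a call in 3. The single MDM2 probe sets differed in sign between the lines. The call with DMSO ended for the mean of the MDM2 probe sets (0.08, adjusted p = 0.363) and with the spike-in covariate (0.54, adjusted p = 0.165). The MDM2 response of shp105 cells missed the threshold without shp105_DMSO replicate 1 (adjusted p = 0.0501) or shp105_TMZ replicate 3 (adjusted p = 0.0559). With the spike-in covariate it was missed in both lines (adjusted p = 0.0921 in shp105 cells and 0.176 in shcontrol cells). Over all alternatives the highest adjusted p of the MDM2 response in shp105 cells was 0.156.

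TNFRSF10B, the TRAIL receptor DR5, lies on chromosome 8, as do the other 3 TNFRSF10 genes. It had higher TMZ means that did not pass the test. In shp105 cells it was 9.96, 9.97 and 9.87 with TMZ, against 9.75, 9.90 and 9.77 with DMSO. In shcontrol cells it was 9.88, 10.01 and 9.93 with TMZ, against 9.82, 9.84 and 9.74 with DMSO. The arrays of both treatments overlapped in shp105 cells and did not overlap in shcontrol cells. The difference was 0.13 (SE 0.06, 95% interval -0.00066 to 0.26, adjusted p = 0.309) in shp105 cells and 0.14 (SE 0.06, 95% interval 0.01 to 0.27, adjusted p = 0.420) in shcontrol cells. Between the lines the brightest probe set differed by -0.0020 with TMZ and 0.0058 with DMSO, with intervals from -0.13 to 0.13 and from -0.12 to 0.14. With DMSO 4 of 4 probe sets were higher in shp105 cells, from 0.0058 to 0.23. With TMZ 2 of 4 were higher, from -0.13 to 0.27 in all. The mean of the 4 differed by 0.05 with TMZ (adjusted p = 0.586) and 0.16 with DMSO (adjusted p = 0.0743), uncalled. Of its 4 probe sets, 3 were higher with TMZ in shp105 cells and 4 in shcontrol cells, and none was called in any comparison.

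TNFRSF10A, the TRAIL receptor DR4, was dim, and 2 of its 3 probe sets lay within the range of the absent-sequence controls on all arrays. Its brightest probe set read 4.47, 4.37 and 4.89 in shp105 cells with TMZ, against 4.40, 4.03 and 4.26 in shcontrol cells with TMZ. With DMSO it read 4.49, 4.27 and 4.37 in shp105 cells, against 4.45, 4.54 and 4.40 in shcontrol cells. The lines overlapped under each treatment. The TMZ response was 0.20 (SE 0.13, adjusted p = 0.491) in shp105 cells and -0.23 (SE 0.13, adjusted p = 0.543) in shcontrol cells. Their difference of 0.43 had a 95% interval of 0.03 to 0.83 and an adjusted p of 0.773. The line difference with TMZ, 0.35 (adjusted p = 0.0811), passed only without shp105_TMZ replicate 2 (0.45, adjusted p = 0.0402).

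TNFRSF1A, the main receptor for tumour necrosis factor, was higher in shp105 cells, the opposite direction to FAS. With TMZ it was 9.08, 9.16 and 9.10 in shp105 cells, against 8.79, 8.95 and 8.65 in shcontrol cells. With DMSO it was 9.24, 9.19 and 9.31 in shp105 cells, against 9.04, 8.88 and 8.94 in shcontrol cells. The lines did not overlap under either treatment. The difference was 0.32 (SE 0.08, adjusted p = 0.0103) with TMZ, a fold of 1.25, and 0.29 (SE 0.08, adjusted p = 0.0159) with DMSO, a fold of 1.23. The DMSO call was lost without shp105_DMSO replicate 3 (0.26, adjusted p = 0.0646) and without shcontrol_DMSO replicate 2 (0.26, adjusted p = 0.0646). With the spike-in covariate the differences were 0.22 (adjusted p = 0.507) with TMZ and 0.17 (adjusted p = 0.784) with DMSO. TMZ minus DMSO was -0.13 in shp105 cells and -0.16 in shcontrol cells, neither called. The gene had 1 probe set, so no second reading was available.

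**Figure D2:**
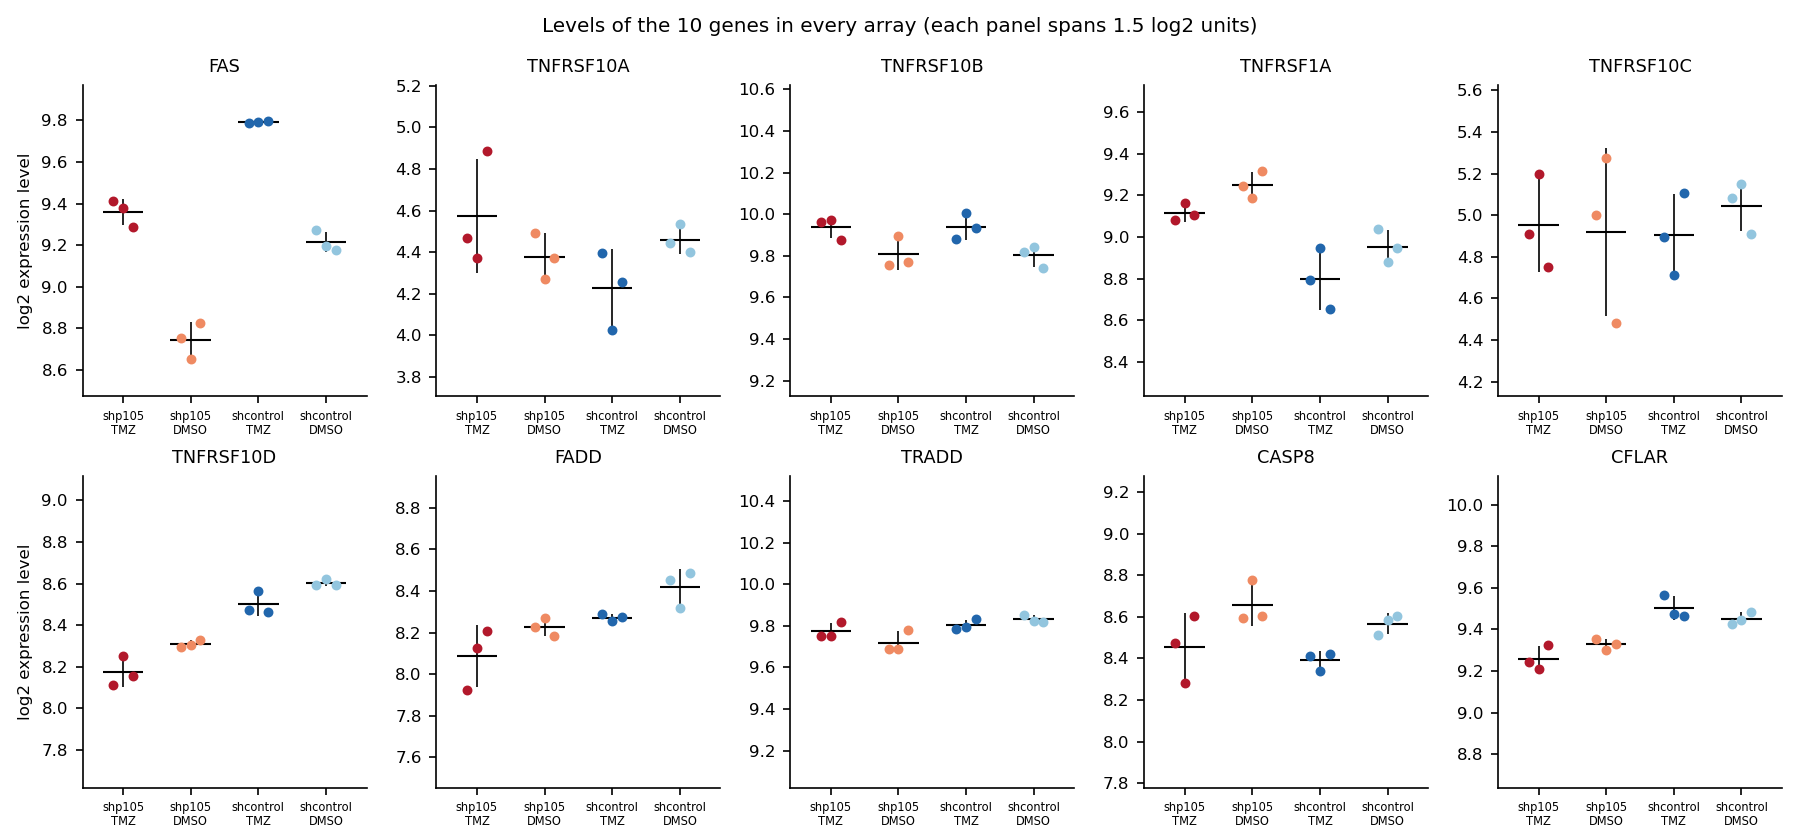
Log2 expression level (vertical axis) of the 10 genes on all 12 arrays, 1 panel per gene, with the 4 groups on the horizontal axis. Every panel spans 1.5 log2 units. Dots are arrays, horizontal bars are group means and vertical bars are 1 SD (n = 3). FAS is higher with TMZ in both lines, and TNFRSF1A is higher and TNFRSF10D lower in shp105 cells.

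TNFRSF10D, a TRAIL decoy with a truncated death domain, was lower in shp105 cells. With TMZ it was 8.11, 8.25 and 8.16 in shp105 cells, against 8.47, 8.56 and 8.46 in shcontrol cells. With DMSO it was 8.29, 8.30 and 8.33 in shp105 cells, against 8.59, 8.62 and 8.59 in shcontrol cells. The lines did not overlap under either treatment. The difference was -0.33 (SE 0.05, adjusted p = 0.000840) with TMZ, a fold of 0.798, and -0.29 (SE 0.05, adjusted p = 0.00176) with DMSO, a fold of 0.816. The second probe set of the gene was dim and gave -0.28 with TMZ and -0.18 with DMSO, uncalled. The mean of both probe sets was no longer called with DMSO (-0.24, adjusted p = 0.110). The spike-in covariate ended the call with TMZ (-0.34, SE 0.11, adjusted p = 0.109) and with DMSO (-0.31, SE 0.13, adjusted p = 0.331). TMZ minus DMSO was -0.14 (SE 0.05, adjusted p = 0.232) in shp105 cells and -0.10 (SE 0.05, adjusted p = 0.500) in shcontrol cells, uncalled.

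TNFRSF10C, a TRAIL decoy held in the membrane by a lipid anchor and lacking a death domain, was dim. Its probe sets differed in size and partly in sign. The probe set that stands for it ranged from 4.48 to 5.28 over the 12 arrays and was called in none of the comparisons. The third by level read 4.43, 4.57 and 4.47 in shp105 cells with TMZ, against 3.89, 3.77 and 4.22 with DMSO. In shcontrol cells it read 5.14, 5.08 and 5.06 with TMZ, against 4.55, 4.29 and 4.05 with DMSO. On this probe set TMZ arrays lay above DMSO arrays in each line. The TMZ response was 0.53 (adjusted p = 0.145) in shp105 cells and 0.80 (adjusted p = 0.0405) in shcontrol cells, the second one called over all probe sets. The line difference was -0.60 (adjusted p = 0.00738) with TMZ, called, and -0.34 (adjusted p = 0.124) with DMSO. That probe set carries the suffix _s_at, which marks probes that can match several transcripts. Among the 10 genes, the probe sets that stand for FAS, TNFRSF1A and CASP8 carry this suffix too. The other 3 TNFRSF10C probe sets were called in no comparison. On the dimmest of them TMZ arrays also lay above DMSO arrays in each line. Its TMZ response was 0.17 (adjusted p = 0.566) in shp105 cells and 0.35 (adjusted p = 0.338) in shcontrol cells. Over all 4 probe sets, TMZ minus DMSO was positive on 3 and negative on 1 in each line. The negative value was -0.02 in shp105 cells and -0.14 in shcontrol cells.

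**Figure D3:**
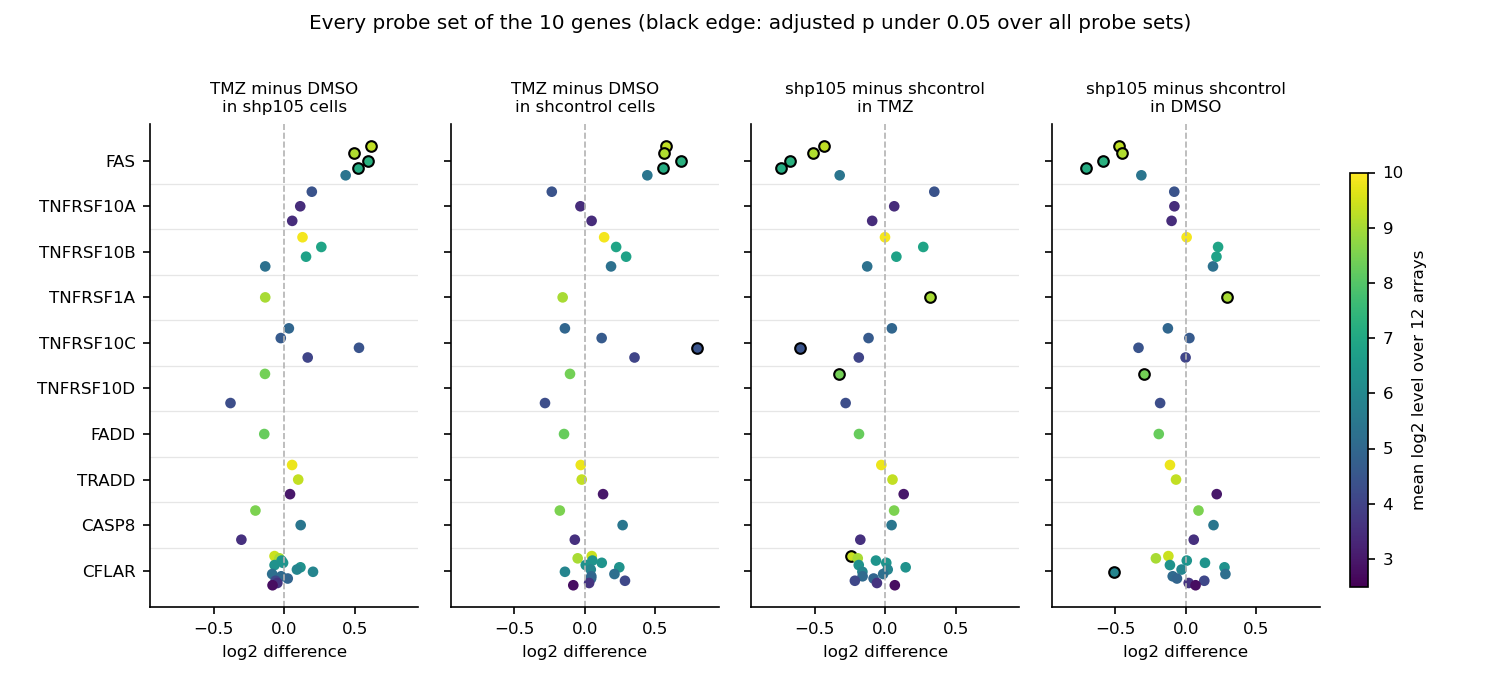
Log2 difference (horizontal axis) of all 40 probe sets of the 10 genes in 4 comparisons, 1 row of dots per gene. Colour gives the mean log2 level over 12 arrays, and a black edge marks an adjusted p under 0.05 over all 54675 probe sets. The FAS probe sets stand together on 1 side in each panel, and those of CFLAR and TNFRSF10C spread around 0.

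The adaptors and CASP8 passed the test in no comparison. FADD, which links receptor death domains to CASP8, read 7.92, 8.13 and 8.21 in shp105 cells with TMZ, against 8.29, 8.26 and 8.27 in shcontrol cells with TMZ. With DMSO it read 8.23, 8.27 and 8.18 in shp105 cells, against 8.45, 8.32 and 8.48 in shcontrol cells. The shp105 arrays lay below the shcontrol arrays in each treatment, with differences of -0.19 (SE 0.07, adjusted p = 0.101) with TMZ and -0.19 (SE 0.07, adjusted p = 0.0970) with DMSO. These differences were called when genes below the median level were left out of the fit (adjusted p = 0.0381 with TMZ and 0.0345 with DMSO). The one with TMZ was also called without shp105_TMZ replicate 3 (-0.25, adjusted p = 0.0402). The one with DMSO was also called with limma's trend and robust options (-0.19, adjusted p = 0.0462). TMZ minus DMSO of FADD was -0.14 (adjusted p = 0.372) in shp105 cells and -0.15 (adjusted p = 0.498) in shcontrol cells.

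TRADD, the adaptor of TNFRSF1A, stayed between 9.69 and 9.85 on all 12 arrays. Its TMZ response was 0.06 (95% interval -0.05 to 0.16) in shp105 cells and -0.03 (95% interval -0.13 to 0.08) in shcontrol cells. Its line difference was -0.03 (95% interval -0.13 to 0.08) with TMZ and -0.11 (95% interval -0.22 to -0.01, adjusted p = 0.142) with DMSO.

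CASP8 was 8.48, 8.28 and 8.61 in shp105 cells with TMZ, against 8.59, 8.78 and 8.60 with DMSO. In shcontrol cells it was 8.41, 8.34 and 8.42 with TMZ, against 8.51, 8.59 and 8.61 with DMSO. The treatments overlapped in shp105 cells and did not in shcontrol cells. TMZ minus DMSO was -0.20 (SE 0.08, adjusted p = 0.243) in shp105 cells and -0.18 (SE 0.08, adjusted p = 0.454) in shcontrol cells. The second CASP8 probe set by level had positive differences of 0.12 and 0.27 in the same comparisons, uncalled. Between the lines CASP8 differed by 0.06 with TMZ (95% interval -0.11 to 0.24) and 0.09 with DMSO (95% interval -0.09 to 0.27).

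CFLAR, the inhibitor of CASP8 activation, was lower in shp105 cells with TMZ on its brightest probe set, which carries the suffix _x_at. It read 9.25, 9.21 and 9.33 in shp105 cells with TMZ, against 9.57, 9.47 and 9.46 in shcontrol cells with TMZ. With DMSO it read 9.35, 9.30 and 9.33 in shp105 cells, against 9.43, 9.45 and 9.48 in shcontrol cells. The lines did not overlap under either treatment. The difference was -0.24 (SE 0.05, adjusted p = 0.00554) with TMZ, a fold of 0.846, and -0.12 (SE 0.05, adjusted p = 0.131) with DMSO. The difference of its TMZ responses, -0.12, had a 95% interval of -0.28 to 0.04 (adjusted p = 0.847), so the line difference was not shown to depend on the drug. Its other probe sets varied: with TMZ 10 of 14 were negative, from -0.24 to 0.14 in all, and 1 was called. The mean of the 14 differed by -0.08 with TMZ (adjusted p = 0.328), and the spike-in covariate also ended the call (-0.15, adjusted p = 0.499). With DMSO 7 of 14 were negative, and the called one was a different, dimmer probe set, with 5.33, 5.71 and 5.91 in shp105 cells against 6.18, 6.06 and 6.22 in shcontrol cells (-0.51, adjusted p = 0.0150).

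Over the 10 genes, the line comparison with TMZ called 4, of which TNFRSF1A was higher in shp105 cells and FAS, TNFRSF10D and CFLAR lower. The background was 21.1% of all genes called, 10.1% higher and 11.0% lower. With DMSO it called 3, TNFRSF1A higher and FAS and TNFRSF10D lower, against 19.9% of all genes called, 8.34% higher and 11.6% lower. At an unadjusted p under 0.05 there were 6 of 10 with TMZ, against 31.9% of all genes, and 6 of 10 with DMSO, against 29.8%. The median difference of the 10 genes was -0.01 with TMZ and -0.12 with DMSO, beside -0.01 and -0.01 over all genes. For the TMZ response the medians were -0.02 in shp105 cells and -0.12 in shcontrol cells, beside 0.014 and -0.0031 over all genes. The line comparisons share no arrays with each other, but each shares its arrays with the TMZ responses. The difference of the TMZ responses called 0 of 10 genes with limma, against 0% of all genes. At an unadjusted p under 0.05 it held 1 of the 10, TNFRSF10A, and 1266 of all 19775 genes (6.40%).

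**Figure D4:**
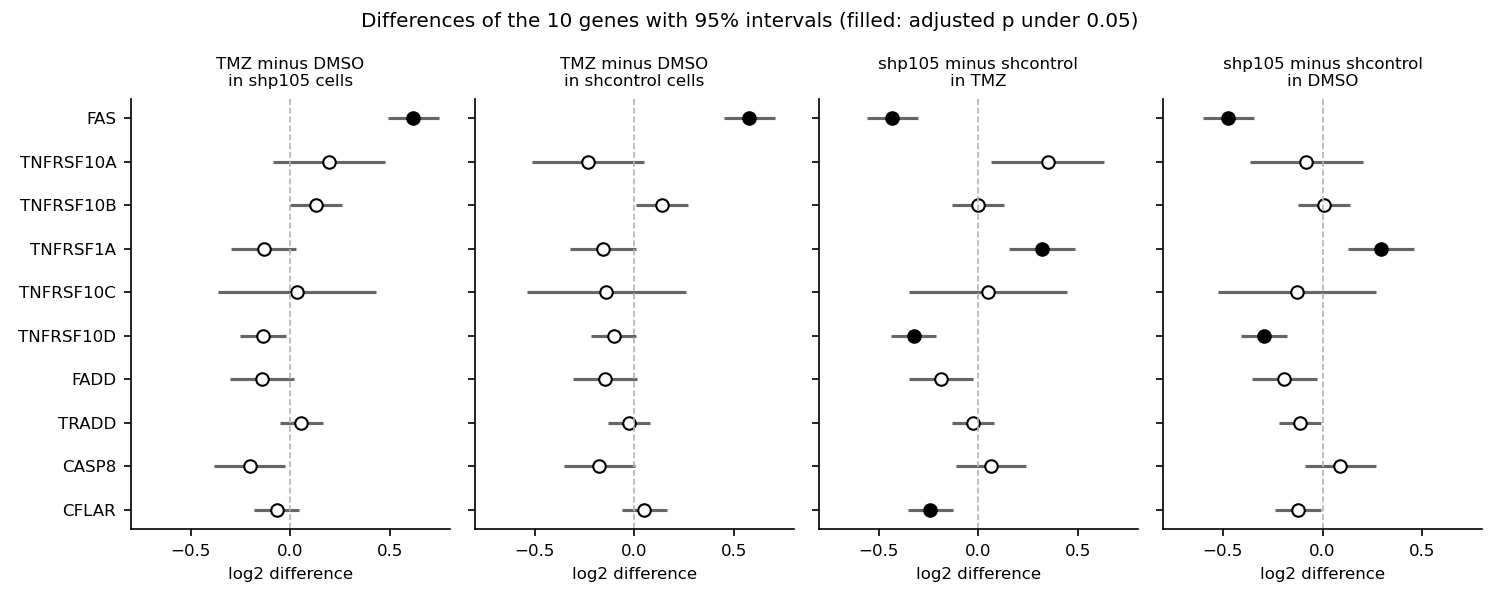
Log2 difference (horizontal axis) of the 10 genes in 4 comparisons, with 95% intervals as lines. Filled dots have an adjusted p under 0.05 over all 19775 genes. In the TMZ panels only FAS is filled, and in the line panels TNFRSF1A lies right of 0 and FAS and TNFRSF10D left of it.

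Of 44 further genes of the pathway, 37 were measured, and the others were not analysed here. After TMZ, limma called 0 of the 37 in shp105 cells and 0 of 37 in shcontrol cells, against 0.865% of all genes in shp105 cells and 0.369% in shcontrol cells. At an unadjusted p under 0.05 it held 5 of 37 in shp105 cells, against 16.3% of all genes, and 5 of 37 in shcontrol cells, against 11.0%. Between the lines it called 5 higher and 5 lower in shp105 cells with TMZ, and likewise 5 and 5 with DMSO. Of all genes, 10.1% were called higher and 11.0% lower with TMZ, and 8.34% higher and 11.6% lower with DMSO. These lists are described by their counts, with median line differences of -0.02 in each treatment.

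Among the 5 measured death ligands, TNFSF10, which encodes TRAIL, was called between the lines in opposite directions. The difference, shp105 minus shcontrol, was -0.21 with TMZ (adjusted p = 0.0252) and 0.25 with DMSO (adjusted p = 0.00865). All its values lay between 3.04 and 3.45, within the range of the absent-sequence controls, and the mean of its probe sets with DMSO was -0.03 (adjusted p = 0.844). The call with TMZ depended on single arrays and ended without shp105_TMZ replicate 2 (adjusted p = 0.0589) or 3 (0.0563), or without shcontrol_TMZ replicate 1 (0.104) or 2 (0.0526). FASLG, the ligand of FAS, ranged from 3.78 to 4.31 and was called in no comparison.

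Among 8 other receptors of the family, TNFRSF21, the death receptor DR6, was higher in shp105 cells by 0.81 (SE 0.06, adjusted p = 1.4e-06) with TMZ and 0.79 (SE 0.06, adjusted p = 1.7e-06) with DMSO. With DMSO it averaged 9.05 (SD 0.06) in shp105 cells and 8.26 (SD 0.03) in shcontrol cells. TNFRSF11B, the secreted decoy osteoprotegerin that can bind TRAIL, was lower in shp105 cells, with -0.72 (SE 0.14, adjusted p = 0.00361) with TMZ and -0.84 (SE 0.14, adjusted p = 0.00135) with DMSO. Both probe sets of each of these genes were called in the same direction under each treatment. TNFRSF25, the death receptor DR3, was called with TMZ (0.34) on its brightest probe set, and TNFRSF1B (-0.29), the second receptor for tumour necrosis factor, and TNFRSF12A (-0.17), the receptor for TWEAK, with DMSO. The TNFRSF25 call ended without shp105_TMZ replicate 2 or any of the shcontrol_TMZ replicates (adjusted p from 0.0530 to 0.0994). Tested singly, the 5 TNFRSF25 probe sets were all positive, with 4 called with TMZ and 2 with DMSO, from 0.10 to 0.67 with TMZ and from 0.03 to 0.74 with DMSO. The TNFRSF12A call ended without any of the shp105_DMSO replicates or shcontrol_DMSO replicates 2 or 3 (adjusted p from 0.0877 to 0.149).

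Among 13 receptor complex partners, FAIM2, an inhibitor of FAS-driven death known from neurons, had the largest line difference of the 37 genes. It averaged 4.98 (SD 0.24) in shp105 cells and 7.21 (SD 0.17) in shcontrol cells with TMZ, a difference of -2.22 (SE 0.12, adjusted p = 1.7e-07). With DMSO it averaged 4.84 (SD 0.16) in shp105 cells and 7.36 (SD 0.06) in shcontrol cells, a difference of -2.51 (SE 0.12, adjusted p = 5.7e-08). Its second probe set showed -0.12 with each treatment and was not called, so the probe sets disagreed in size. RBCK1, a subunit of the linear ubiquitin ligase at the TNFRSF1A complex, was higher in shp105 cells by 0.39 with TMZ (adjusted p = 0.000215) and 0.35 with DMSO (adjusted p = 0.000546) on the brightest of its 3 probe sets. The mean of its probe sets was not called (0.11 with TMZ, adjusted p = 0.186, and 0.11 with DMSO, adjusted p = 0.242). MLKL, the effector of necroptosis, was higher by 0.37 with TMZ (adjusted p = 0.00593) and 0.28 with DMSO (adjusted p = 0.0304). The MLKL call with DMSO ended without shp105_DMSO replicates 1 or 2 or shcontrol_DMSO replicates 2 or 3 (adjusted p from 0.0587 to 0.114). CYLD, a deubiquitinase of the receptor complex, was called with DMSO (-0.30) on its brightest probe set, and its mean over probe sets was not (-0.11, adjusted p = 0.139).

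Downstream of the receptors, CASP9, the initiator caspase of the mitochondrial branch, was higher in shp105 cells by 0.48 (SE 0.07, adjusted p = 0.000557) with TMZ and 0.31 (SE 0.07, adjusted p = 0.0106) with DMSO. The mean of its 3 probe sets was not called (0.13 with TMZ, adjusted p = 0.162, and 0.14 with DMSO, adjusted p = 0.146). The other 10 measured genes of the downstream list, caspase substrates and mitochondrial factors among them, included 2 called with TMZ and 0 with DMSO. They were DFFA (-0.30), the inhibitor of the apoptotic nuclease, whose mean over probe sets was not called (-0.02, adjusted p = 0.788), and PARP1 (-0.18), a caspase substrate. The PARP1 call was lost without shp105_TMZ replicates 1 or 2 and without any of the shcontrol_TMZ replicates (adjusted p from 0.0736 to 0.125).

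With the spike-in covariate FAIM2 and TNFRSF21 kept their line calls under both treatments, and RBCK1 and MLKL kept theirs with TMZ. The calls of TNFSF10, TNFRSF11B, TNFRSF1B, TNFRSF12A, TNFRSF25, CYLD, CASP9, DFFA and PARP1, and those of RBCK1 and MLKL with DMSO, were lost in that fit (adjusted p from 0.161 to 0.791).

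**Figure D5:**
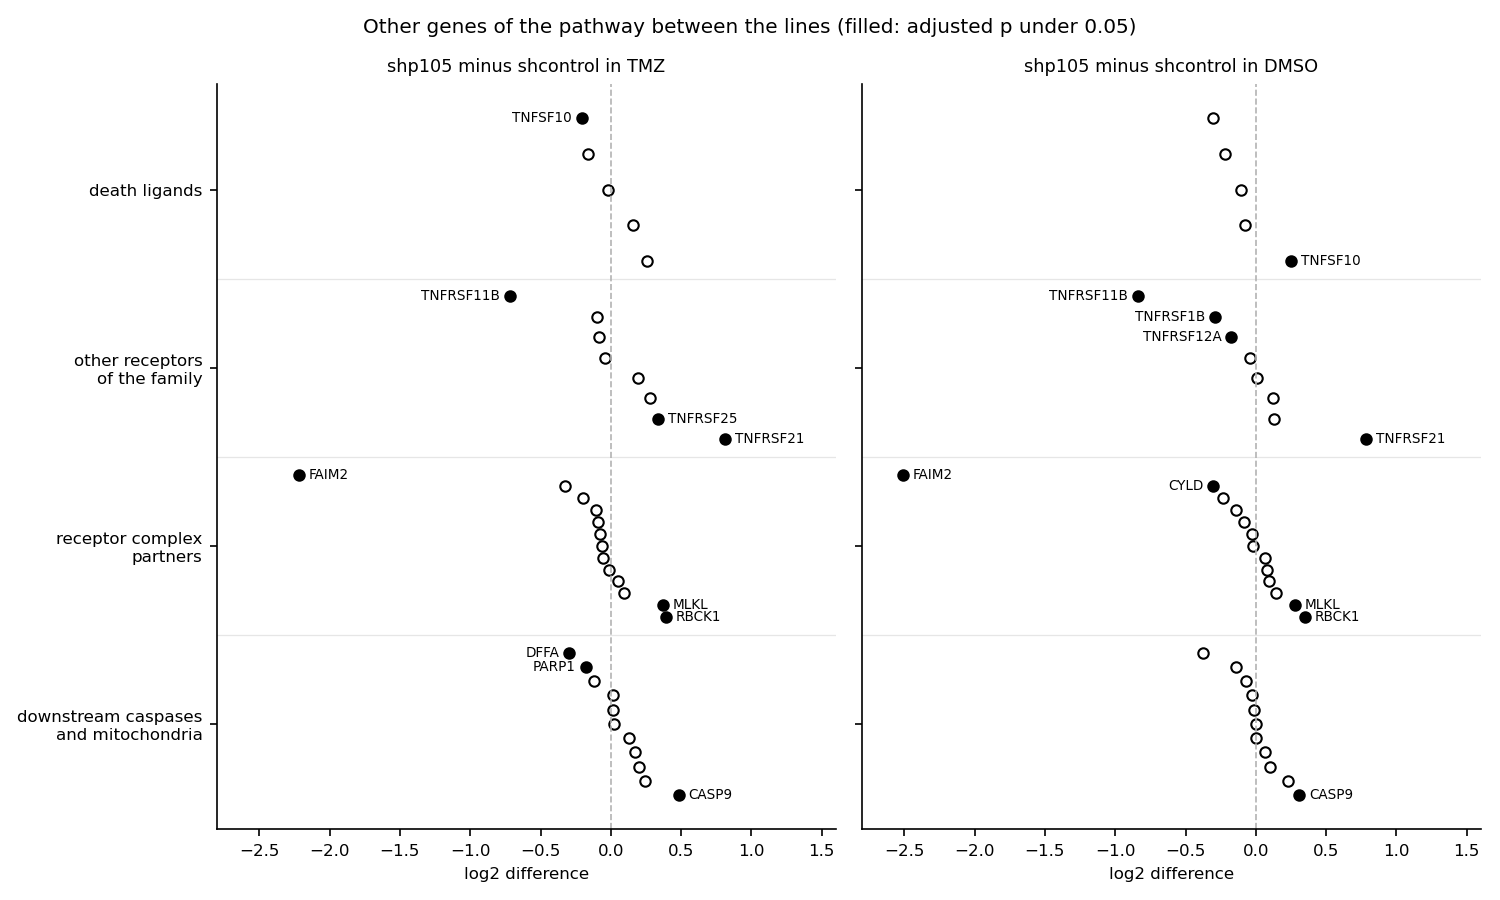
Log2 difference, shp105 minus shcontrol (horizontal axis), of 37 other pathway genes in 4 lists, with TMZ (left) and DMSO (right). Filled dots, with gene names, have an adjusted p under 0.05. In each panel 5 genes are filled right of 0 and 5 left of it, with FAIM2 farthest left.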

How the data were processed

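Total RNA of 12 samples was measured on Affymetrix expression arrays. The authors deposited log2 values per probe set, made with RMA and Affymetrix Power Tools per the submitters' processing notes. Versions, annotation release and filters: not given in the sources used here. No value was missing for any of the 54675 probe sets.

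Groups came from the sample labels. Gene symbols came from the array's probe table, updated through RefSeq (GRCh38.p14). A lone symbol was found for 41097 probe sets, several for 1801 and none for 11777. A gene was read by its single-symbol probe set with the highest mean, without a filter on dim genes. One limma fit of 4 group means over all arrays (lmFit, contrasts.fit, eBayes) gave 2-sided tests, adjusted by Benjamini-Hochberg over 19775 genes and called under 0.05. Probe sets were also tested singly, adjusted over all 54675. Errors are standard errors of the fit, and intervals are 95% and unadjusted. The number of arrays limits the precision. The fit was tested on simulated data.

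The 10 genes, the pathway lists and the tests were chosen with earlier results of these data known. Named were the 10 genes, NFKB1, CDKN1A, MDM2 and called genes of the pathway lists. FASLG was named after its values were seen. Alternatives were another gene summary, a filter on dim genes, added normalization, other settings of the fit, a replicate block, the spike-in level as a covariate, a stricter threshold and each array left out in turn. R 4.3.3 with limma 3.58.1 and data.table (version 1.17.8) made the tables, and Python 3.11.15 with pandas 2.3.3 and matplotlib 3.10.9 the plots.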

Additional observations from a re-analysis of the deposited data

How the results depend on the processing

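The number of the 10 genes called moved by over 1.5 times in 5 combinations of setting and comparison and stayed within that in the other 85. With the spike-in covariate it was 0 for TMZ in shcontrol cells, 1 for the lines in TMZ and 1 for the lines in DMSO, FAS in each line comparison. In a fit of just the groups concerned it was 0 for TMZ in shp105 cells. With genes below the median level left out it was 6 for the lines in DMSO, where FADD, TRADD and CFLAR joined. Leaving out each array in turn gave 1 to 1 in each TMZ response, 4 to 5 for the lines in TMZ, 2 to 3 for the lines in DMSO and 0 to 0 for the difference of responses. Over all genes the spike-in covariate left 13 called for TMZ in shp105 cells (171 without it), 0 in shcontrol cells (73), 1045 between the lines in TMZ (4166) and 523 in DMSO (3937); the cause was not tested.

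Single probe sets reversed called signs or were called against their gene. CFLAR between the lines in TMZ was 0.14, 0.0071, 0.068 and 0.017 on 4 of its 14 probe sets, all uncalled. TNFRSF10C on the third of its probe sets by level was 0.80 for TMZ in shcontrol cells and -0.60 between the lines in TMZ. TNFSF10 between the lines in DMSO was -0.033 as the mean of its probe sets. Sign changes of values uncalled under both settings were not counted as reversals.

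Replicate numbers were shared between groups, but same-numbered arrays deviated together only weakly (r from -0.11 to 0.12). With the replicate block the 10 genes gave 1, 1, 4, 3 and 0 calls, in the order TMZ in shp105 cells, TMZ in shcontrol cells, lines in TMZ, lines in DMSO and difference of responses. Over all genes the block gave 84, 30, 3885, 3677 and 0 calls in that order. Dim probe sets near the absent-sequence controls, among them those of TNFRSF10A and TNFSF10, limit what these arrays can show.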

Other observations

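The 2 probe sets that name TNFRSF10C together with LOC254896 belong to no comparison above. On the dimmer one shp105 cells read 4.17, 4.24 and 3.95 with TMZ, against 4.04, 3.89 and 3.66 with DMSO. On the same probe set shcontrol cells read 4.15, 4.33 and 4.14 with TMZ, against 3.86, 3.83 and 4.04 with DMSO. TMZ minus DMSO was 0.26 (SE 0.11, adjusted p = 0.382) in shp105 cells and 0.30 (SE 0.11, adjusted p = 0.468) in shcontrol cells, uncalled by limma. On the brighter one it was 0.30 (SE 0.16, adjusted p = 0.500) in shp105 cells and -0.02 (SE 0.16, adjusted p = 0.989) in shcontrol cells.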
